A study of Mus musculus with 4 samples.

Results

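The family described here holds 9 genes of vascular endothelial growth factor (VEGF) signalling. They are the ligand genes Vegfa, Vegfb, Vegfc and Pgf, the receptor genes Flt1, Kdr and Flt4, and the co-receptor genes Nrp1 and Nrp2. They were found by their symbols among 33677 gene symbols in a table of raw read counts, and all 9 were present. The counts come from PyMT-A, a mammary tumour cell line of the FVB/NJ mouse strain that is named after the polyoma middle T oncogene. Jagged1 cells had been infected with a PMSCV-Jagged1 virus, which carries a ligand of Notch receptors, and vector cells with a PMSCV-puro virus. Poly(A) RNA of cultured cells was sequenced in 2 libraries per line, named Jagged1 1, Jagged1 2, vector 1 and vector 2. Both lines thus carry a retrovirus, and the labels do not say whether either line is a clone or a pool, or whether the replicates were separate cultures. Any p-value below thus reflects variation among these 4 libraries alone and may be technical in origin. The 9 genes were chosen by name, with the Jagged1 and vector levels of these same libraries already known, so the members' values are given as a description and not as support for a difference.

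VEGF proteins are secreted growth factors that make blood and lymphatic vessels grow. VEGF-A acts mainly through the receptor tyrosine kinase VEGFR2, encoded by Kdr. VEGFR1, encoded by Flt1, binds VEGF-A, VEGF-B and placental growth factor (Pgf) tightly but has a weak kinase, and its soluble splice form captures ligand. VEGF-C acts on VEGFR3, encoded by Flt4, in lymphatic vessels. Neuropilins, encoded by Nrp1 and Nrp2, bind VEGFs as well as class 3 semaphorins and work together with VEGF receptors or plexins. In tumours the ligands often come from cancer cells and the receptors mostly sit on endothelial cells, while monocytes and macrophages also carry VEGFR1 and move toward its ligands.

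Total counts were 20835208 and 13549258 in the Jagged1 libraries and 15609720 and 12136227 in the vector libraries. Jag1, the transduced gene, had 274.7 and 324.5 CPM in the Jagged1 libraries, against 10.5 and 9.12 CPM in the vector libraries, so the libraries matched their labels. CPM are reads relative to library size, scaled here with edgeR's TMM factors. The libraries split more by replicate number than by line, since the leading axis of a principal component analysis (51.6% of variance) had Jagged1 1 and vector 1 on one side and Jagged1 2 and vector 2 on the other. Differences are therefore also given within each number. Mammary epithelial genes were high in all libraries, with 13 of 15 listed markers tested and Epcam at 965 and 954 CPM in Jagged1 cells against 921 and 836 CPM in vector cells, while Krt19 and Krt5 had at most 2 counts in any library.

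The VEGF family of these tumour cells was made of ligands and neuropilin-2, with little of the signalling receptors. Per kilobase of exon, Nrp2 and Vegfa stood highest, with 30.4 ± 1.49 and 29.8 ± 17.4 CPM per kilobase in Jagged1 cells and 34.6 ± 5.26 and 30.8 ± 3.48 in vector cells (SD, n = 2 per line). Vegfb followed with 24.9 ± 5.81 CPM per kilobase in Jagged1 cells and 23.3 ± 0.596 in vector cells. Nrp2, Vegfa and Vegfb overlapped between libraries, so their order is not resolved. Vegfc, with 6.36 ± 4.47 CPM per kilobase in Jagged1 cells and 7.37 ± 3.63 in vector cells, lay below all of them in each library. Pgf came next with 2.46 ± 0.415 CPM per kilobase in Jagged1 cells and 1.08 ± 0.303 in vector cells, above Nrp1 at 0.771 ± 0.0150 and 0.734 ± 0.139. Flt1 stood at 0.439 ± 0.00723 CPM per kilobase in Jagged1 cells and 0.106 ± 0.00405 in vector cells, below the lowest library of Nrp1. Flt4 averaged 0.0395 ± 0.0310 CPM per kilobase in Jagged1 cells and 0.0943 ± 0.0765 in vector cells, and its highest library overlapped with Flt1. Kdr was the lowest member, with 0.0174 ± 0.00939 CPM per kilobase in Jagged1 cells and 0.00451 ± 0.00638 in vector cells. The order was the same when the longest coding transcript took the place of all exons. Lengths are from GENCODE M21, which need not be the annotation used for counting, and reads of splice forms such as soluble Flt1 are not separated in a count per gene.

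**Figure D1:**
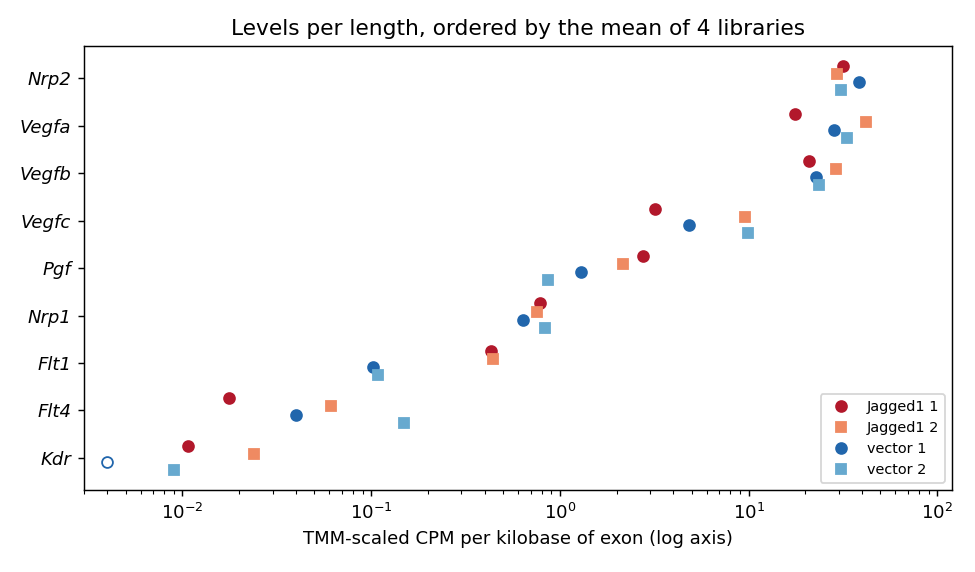
TMM-scaled CPM per kilobase of exon on a log axis for the 9 members, 1 point per library, with Jagged1 libraries in red and vector libraries in blue, circles for number 1 and squares for number 2. The open circle marks a count of 0 for Kdr in vector 1, drawn at the left edge. Nrp2, Vegfa and Vegfb overlap at the top, and Kdr and Flt4 lie at the bottom.

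Placental growth factor and its receptor gene were the members with both Jagged1 libraries above both vector libraries among the 7 that passed the filter on low counts. The other 5 had overlapping lines, and 0 had both Jagged1 libraries below. Among 13299 tested genes in all, the same held for 13.9% (above) and 15.1% (below). In edgeR's quasi-likelihood fit over all genes 0 of the 7 passed an adjusted p of 0.05, a threshold that 0.00752% of tested genes passed, and 2 of the 7 (Flt1 and Pgf) had an unadjusted p under 0.05, against 3.96% of all genes. These shares come from the comparison for which the family was picked, and nothing is read from them. The median log2 fold change of the 7 was 0.07, with 4 positive and 3 negative values, beside a median of -0.0025 over all tested genes. Counts of whole cultures cannot tell a change in RNA per cell from a change in the number of cells that express a gene.

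**Figure D2:**
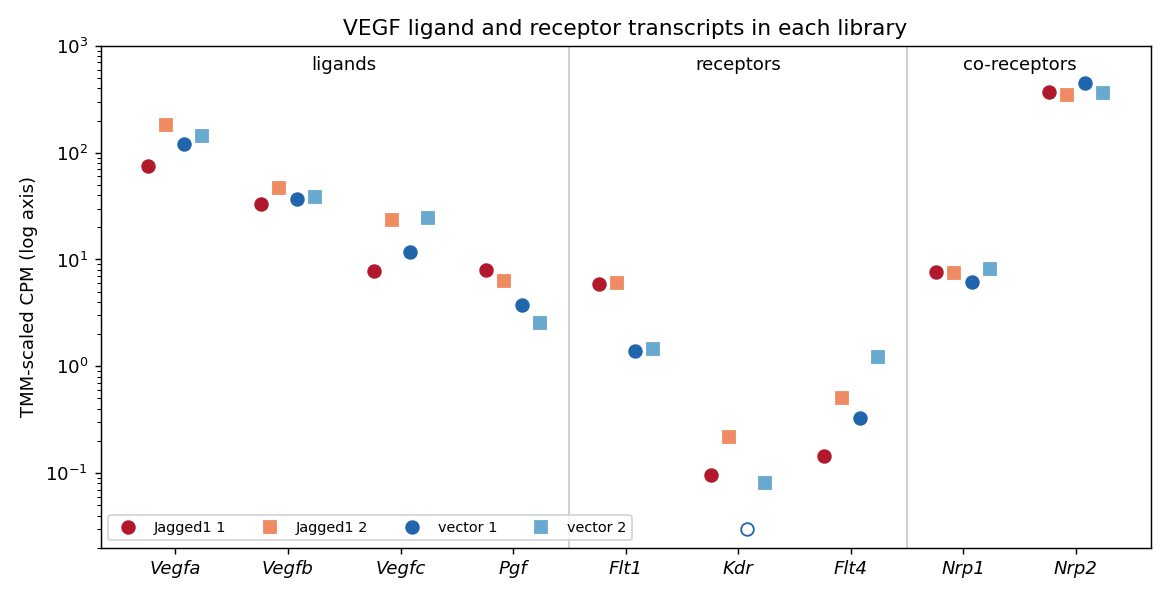
TMM-scaled CPM on a log axis for the 9 members, 1 point per library, with Jagged1 libraries (red) left of vector libraries (blue) for each gene. Flt1 at 5.86 and 5.99 CPM and Pgf at 7.98 and 6.28 CPM in Jagged1 cells lie above both vector libraries, and the open circle is a count of 0 for Kdr in vector 1.

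Flt1, the VEGFR1 gene (chromosome 5, 147561604 to 147726011, minus strand, GRCm38, protein coding), had 121 and 83 reads in the Jagged1 libraries, against 21 and 18 reads in the vector libraries. Scaled, these are 5.86 and 5.99 CPM in Jagged1 cells and 1.39 and 1.47 CPM in vector cells. The replicates of each line were close and the lines were far apart. The fold was 4.14, or 2.05 ± 0.35 on the log2 scale (SE), and the adjusted p over all genes was 0.72 (edgeR). The value was 1.98 within number 1 and 1.94 within number 2 in log2 CPM, and it lay between 2.02 and 2.09 with any library left out. In this ordering 41 tested genes had a larger log2 fold change. DESeq2 passed Flt1 (adjusted p = 0.0463) among 47 genes, 0.353% of those tested, and edgeR without the low-count filter passed it (adjusted p = 0.00725) among 169 genes, 0.686%. It remained a weakly expressed gene, with a level above the floor of 3 counts (0.145 to 0.244 CPM) in every library.

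Endothelial cells are the usual source of Flt1, and their markers were mostly low, with an exception in the libraries numbered 2. Of 19 endothelial markers 6 had no read in any library (Tie1, Emcn, Cldn5, Erg, Sox17 and Sox18). Pecam1 had 0 reads in both Jagged1 libraries, against 4 and 1 reads in the vector libraries, and Vwf had 0 in both Jagged1 libraries, against 2 and 1 in the vector libraries. Other markers went the other way. Esam had 12 and 11 reads in the Jagged1 libraries and 5 and 7 in the vector libraries, and Prox1 3 and 7 against 0 and 2. Cdh5, the VE-cadherin gene, was the exception, at 0.484 and 6.07 CPM in Jagged1 cells and 0.397 and 2.61 CPM in vector cells. Of the 2 tested endothelial markers, Cdh5 had a positive log2 fold change and Eng a negative one. The summed level of the 19 markers was 3.05 and 9.60 CPM in Jagged1 cells and 3.97 and 6.11 CPM in vector cells, so the lines overlapped in it.

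Among 12 leukocyte markers Ptprc had 0 and 1 reads in the Jagged1 libraries and 1 and 1 reads in the vector libraries, and C1qa had 0 in all. Lyz2 had 0 and 89 reads in the Jagged1 libraries and 0 and 71 reads in the vector libraries, so its reads lay in the libraries numbered 2, as did those of Adgre1, with 0 and 16 reads in the Jagged1 libraries and 0 and 6 reads in the vector libraries. Aif1 had 13 and 52 reads in the Jagged1 libraries and 8 and 12 reads in the vector libraries. Csf1r, the receptor gene of a macrophage growth factor, had 32 and 23 reads in the Jagged1 libraries and 10 and 16 reads in the vector libraries. Other markers went the other way. Cd68 had 3 and 22 reads in the Jagged1 libraries and 15 and 32 reads in the vector libraries. Fcgr1 had 2 and 2 reads against 6 and 3, and Mrc1 0 and 1 reads against 3 and 3. Of the 5 tested leukocyte markers 4 had positive log2 fold changes and 1 (Cd68) a negative one, with 0 past the adjusted threshold. The leukocyte sum of 175 and 401 CPM in Jagged1 cells and 211 and 240 CPM in vector cells was nearly all Cd14.

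Fibroblast and pericyte markers, 12 genes of which Lum and Kcnj8 had no read, were together higher in both Jagged1 libraries than in both vector libraries. They summed to 12.6 and 72.7 CPM in Jagged1 cells and 4.69 and 10.3 CPM in vector cells. Pdgfra stood at 8.03 and 6.72 CPM in Jagged1 cells and 3.37 and 4.97 CPM in vector cells. Pdgfrb had 9 and 103 reads in the Jagged1 libraries and 0 and 0 in the vector libraries, and Dcn had 6 and 23 reads in the Jagged1 libraries and 0 and 0 in the vector libraries. Col1a1 had 36 and 376 reads in the Jagged1 libraries and 16 and 24 reads in the vector libraries, and Col1a2 had 280 reads in Jagged1 2 and 0 in each other library. Other markers did not separate the lines. Postn had 39 and 96 reads in the Jagged1 libraries and 0 and 33 in the vector libraries. Cspg4 had 4 and 32 reads against 4 and 3, and Abcc9 0 and 3 against 0 and 3. Rgs5 and Thy1 had 1 read each, in vector 2. The part of these other cell types in the values of Flt1 and Pgf was not tested.

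Pgf, the gene of placental growth factor (chromosome 12, 85166635 to 85177790, minus strand, GRCm38, protein coding), had 165 and 87 reads in the Jagged1 libraries, against 57 and 31 reads in the vector libraries. Scaled, it stood at 7.98 and 6.28 CPM in Jagged1 cells and 3.77 and 2.52 CPM in vector cells. The lowest Jagged1 library was above the highest vector library, with a wider spread than for Flt1. The fold was 2.26, or 1.18 ± 0.36 on the log2 scale (SE), and the adjusted p over all genes was 0.9999 (edgeR). It was 1.06 within number 1 and 1.27 within number 2, and between 0.92 and 1.51 with 1 library left out. DESeq2 did not pass Pgf (adjusted p = 0.85).

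Since Flt1 and Pgf differed in the same direction, the bases around their annotated starts are shown, 250 before to 50 after each start, 5′ to 3′ on the gene's own strand. The sequences are from RefSeq on GRCm38.p6, and the tables there matched 9 of 9 members with 11 promoters. Flt1 lies at chr5:147725962-147726261, minus strand. Pgf has an upstream start at chr12:85177264-85177563 and a downstream one at chr12:85175933-85176232, both on the minus strand. The upstream Vegfa promoter at chr17:46032328-46032627, minus strand, is shown beside them as that of a ligand gene that did not separate the lines. A downstream Vegfa promoter at chr17:46025114-46025413 is not shown. Capitals mark 4 motifs, searched on both strands. These are TGGGAA, the core bound by RBPJ, the DNA-binding partner of Notch; ACGTG, the core of the hypoxia response element; TGACGTCA, the cAMP response element; and TATAAA, the TATA box. The last 2 were added after the Flt1 sequence had been read. The letters ACGT are common to the hypoxia core and the cAMP response element.
Flt1: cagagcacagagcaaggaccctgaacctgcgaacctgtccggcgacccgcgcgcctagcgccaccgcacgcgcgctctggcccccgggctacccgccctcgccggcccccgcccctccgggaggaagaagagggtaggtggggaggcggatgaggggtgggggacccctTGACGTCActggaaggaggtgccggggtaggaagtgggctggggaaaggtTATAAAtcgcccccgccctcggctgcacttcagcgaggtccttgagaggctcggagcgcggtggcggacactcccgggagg
Pgf upstream start: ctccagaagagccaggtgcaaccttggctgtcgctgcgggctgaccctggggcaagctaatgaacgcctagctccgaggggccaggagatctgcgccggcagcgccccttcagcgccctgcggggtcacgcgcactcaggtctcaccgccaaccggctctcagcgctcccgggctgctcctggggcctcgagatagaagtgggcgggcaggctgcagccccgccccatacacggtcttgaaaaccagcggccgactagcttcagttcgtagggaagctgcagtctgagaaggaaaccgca
Pgf downstream start: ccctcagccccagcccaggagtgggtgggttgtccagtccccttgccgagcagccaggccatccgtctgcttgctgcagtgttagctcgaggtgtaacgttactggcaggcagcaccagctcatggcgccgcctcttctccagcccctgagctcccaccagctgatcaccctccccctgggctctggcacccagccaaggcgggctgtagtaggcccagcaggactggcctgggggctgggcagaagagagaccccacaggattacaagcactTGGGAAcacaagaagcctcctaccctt
Vegfa: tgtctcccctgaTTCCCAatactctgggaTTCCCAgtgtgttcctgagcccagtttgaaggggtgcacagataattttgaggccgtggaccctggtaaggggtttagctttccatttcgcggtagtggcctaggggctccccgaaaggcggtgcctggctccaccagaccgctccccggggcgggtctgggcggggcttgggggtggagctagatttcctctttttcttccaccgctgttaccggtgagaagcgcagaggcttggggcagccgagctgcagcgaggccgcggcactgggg

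In the Flt1 window TGACGTCA lay from -81 to -74 and TATAAA from -31 to -26 relative to the start, and neither TGGGAA nor ACGTG was present. The cAMP response element was in 1.79% of all 32851 promoters of this length and in 1 of 11 member promoters, and TATAAA was in 13.6% of all and 1 of 11. TGGGAA was in the window of the downstream Pgf start, from 24 to 29 after it, and in neither orientation in the upstream one. The Vegfa window shown held it in reverse orientation at -238 and at -221. The RBPJ core was in 25.6% of all promoters and in 4 of 11 member promoters, counting both Vegfa windows, so the letters are common. The hypoxia core was in 19.6% of all and 1 of 11, which was the downstream Vegfa window. There it lay in reverse orientation from -211 to -207, with TGGGAA at -87 and at -12. A match of letters is a description and does not mark a bound site.

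Vegfa, the main angiogenic ligand (chromosome 17, 46016993 to 46032369, minus strand, GRCm38), did not separate the lines. It stood at 75.2 and 180.4 CPM in Jagged1 cells and at 121.5 and 142.6 CPM in vector cells. Jagged1 1 was the lowest library and Jagged1 2 the highest, with both vector libraries between them. The log2 fold change was -0.049 ± 0.41 (SE), from -0.69 within number 1 to 0.34 within number 2. Without Jagged1 1 it was 0.47 and without Jagged1 2 it was -0.81, so its sign rests on single libraries. The spread between the Jagged1 libraries was larger than any difference between the lines.

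Vegfc, the lymphatic ligand, followed the replicate number more than the line. It stood at 7.84 and 23.3 CPM in Jagged1 cells and at 11.8 and 24.3 CPM in vector cells. Both libraries numbered 2 were above both numbered 1, by 1.56 in log2 CPM in Jagged1 cells and by 1.04 in vector cells. The log2 fold change between lines was -0.22 ± 0.59 (SE), and between -1.20 and 0.40 with 1 library left out. Vegfb, a ligand of VEGFR1, stood at 33.4 and 46.6 CPM in Jagged1 cells and at 36.8 and 38.1 CPM in vector cells, with a log2 fold change of 0.09 ± 0.21. Its vector libraries lay between its Jagged1 libraries. Of the 7 tested members 3 (Vegfa, Vegfb and Vegfc) had both libraries numbered 2 above both numbered 1, against 25.8% of all tested genes, and 1 (Nrp2) had both below, against 26%. What the number stands for is not given in the labels, and its part in these values was not tested.

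The make-up of the ligand pool differed with these values. Per length, Pgf made up 6.21% and 2.61% of ligand transcripts in Jagged1 cells and 2.26% and 1.28% in vector cells, counting Figf, the older symbol of the fifth ligand gene Vegfd, which had 1 and 3 reads in the Jagged1 libraries and 3 and 1 reads in the vector libraries. Vegfa made up 39.6% and 50.8% in Jagged1 cells and 49.4% and 49% in vector cells. Vegfb made up 46.9% and 35% in Jagged1 cells and 39.9% and 35% in vector cells. The Pgf share was thus higher in both Jagged1 libraries, though in Jagged1 1 the low Vegfa level also entered it. There were 12.8 and 30.1 reads of Vegfa for each read of Flt1 in Jagged1 cells, against 87.5 and 97.3 in vector cells, a ratio not corrected for length. The lines did not overlap in it, but Vegfa did not separate the lines, so the ratio restates the Flt1 difference.

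Kdr and Flt4, the genes of the main blood and lymphatic vessel receptors, did not pass the low-count filter. Kdr had 2 and 3 reads in the Jagged1 libraries and 0 and 1 reads in the vector libraries. Summed per line it was at 0.145 CPM in Jagged1 cells (exact 95% Poisson interval 0.047 to 0.338, counting error only) and 0.0365 CPM in vector cells (0.000924 to 0.203), and the intervals overlap although both Jagged1 values are above both vector values. No difference in Kdr was detectable at this depth. Flt4 had 3 and 7 reads in the Jagged1 libraries and 5 and 15 reads in the vector libraries. Its sums were at 0.29 CPM in Jagged1 cells (0.139 to 0.533) and 0.73 CPM in vector cells (0.446 to 1.13). The lines overlapped, with the highest value of 1.22 CPM in vector 2 and 0.505 CPM in Jagged1 2. In both lines the number 2 library was the higher in Flt4, as in Vegfc, the gene of its ligand. Within each line, though, the Poisson intervals of the Flt4 libraries overlapped. Both libraries numbered 2 were above both numbered 1 in 25.8% of all tested genes.

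The neuropilin genes differed from each other, per length as given above, far more than between lines. Nrp2 stood at 372.9 and 347.9 CPM in Jagged1 cells and at 453.2 and 365.1 CPM in vector cells, and Nrp1 at 7.65 and 7.44 CPM in Jagged1 cells and 6.21 and 8.14 CPM in vector cells. There were 48.8 and 46.8 reads of Nrp2 per read of Nrp1 in Jagged1 cells and 72.9 and 44.8 in vector cells. The log2 fold change was -0.18 ± 0.17 for Nrp2 and 0.07 ± 0.28 for Nrp1 (SE). For Nrp2, Jagged1 1 lay between the vector libraries and Jagged1 2 below both, and for Nrp1 both Jagged1 libraries were between the vector libraries. Nrp1 was the single member whose exons overlap another annotated gene, the microRNA gene Mir1903, over 80 bases.

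**Figure D3:**
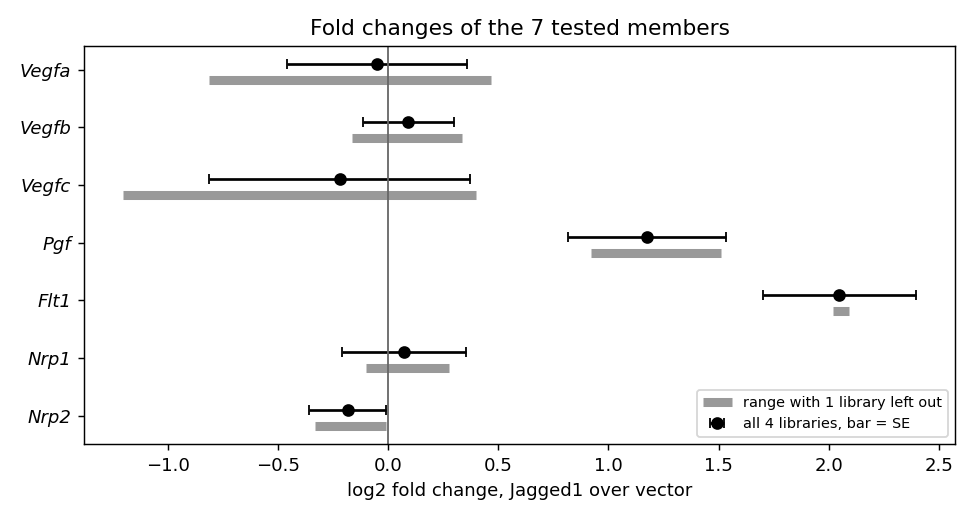
Log2 fold change of Jagged1 over vector for the 7 tested members, with dots and bars for the estimate and SE from all 4 libraries, and grey bars for the range with 1 library left out. Flt1 (2.02 to 2.09) and Pgf (0.92 to 1.51) stay above 0, while the ranges of Vegfa, Vegfb, Vegfc and Nrp1 cross 0.

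Partners of the neuropilins had values on both sides of 0. Of 13 semaphorin, plexin and adaptor genes 10 were tested, 5 with positive and 5 with negative values and 0 past the adjusted threshold (median log2 fold change -0.069). Sema3c, a class 3 semaphorin, was at 186 and 260.1 CPM in Jagged1 cells and 259.9 and 387.8 CPM in vector cells (log2 fold change -0.54 ± 0.27). Sema3e, the ligand of plexin D1, stood at 30.8 and 28.9 CPM in Jagged1 cells and 33.8 and 47.1 CPM in vector cells (-0.44 ± 0.21). Plxnd1, the gene of plexin D1, was at 3.15 and 7.08 CPM in Jagged1 cells and 2.05 and 2.28 CPM in vector cells (1.23 ± 0.50), a value that was 1.73 without Jagged1 1 and 0.54 without Jagged1 2. In Sema3e both Jagged1 libraries were below both vector libraries, and in Plxnd1 both were above. Sema3c, Sema3e and Plxnd1 were named for their low p. Over the 10 tested genes both Jagged1 libraries were above in 2 and below in 2, against 13.9% and 15.1% of all tested genes. Sema3c overlapped narrowly, with Jagged1 2 level with vector 1.

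Genes that regulate Vegfa or sense oxygen had mostly positive values, none past the threshold. Of 17 listed genes 16 were tested, with 12 positive, 4 negative and 0 passing (median 0.12). Among all 13299 tested genes 6588 were positive. The list's median difference in log2 CPM was 0.033 within number 1 and 0.263 within number 2, so the lean lay mostly in number 2. Epas1, which encodes the hypoxia factor HIF-2 alpha, was at 18.6 and 18.3 CPM in Jagged1 cells and 9.06 and 13.8 CPM in vector cells (0.69 ± 0.26). Stat3, a transcription factor of cytokine signalling, was at 263.2 and 481.1 CPM in Jagged1 cells and 234.8 and 225 CPM in vector cells (0.69 ± 0.30). Zfp36l1, an RNA-binding protein that shortens the life of messages, was at 87.1 and 102.5 CPM in Jagged1 cells and 77.6 and 80.3 CPM in vector cells (0.26 ± 0.16). Both Jagged1 libraries were above both vector libraries in these genes, which were named for their low p, and in 5 of the 16 tested genes of the list, with both below in 1, against 13.9% and 15.1% of all tested genes. The log2 fold change of Stat3 was 1.08 without Jagged1 1 and 0.195 without Jagged1 2, so its size rests on Jagged1 2.

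Signalling proteins downstream of VEGF receptors stayed close to 0, with values from -0.45 to 0.37. Of 33 genes 28 were tested, 10 positive and 18 negative, and 0 passed (median -0.042). Sphk1, a sphingosine kinase, was at 78.4 and 85.4 CPM in Jagged1 cells and 112.2 and 111.2 CPM in vector cells (-0.45 ± 0.14). Plcg1, the phospholipase C gamma that VEGFR2 activates, was at 72.9 and 71.4 CPM in Jagged1 cells and 58.7 and 57 CPM in vector cells (0.32 ± 0.14). Ptk2, the focal adhesion kinase gene, was at 100.4 and 97 CPM in Jagged1 cells and 120.6 and 120.3 CPM in vector cells (-0.29 ± 0.14). The lines did not overlap in these genes, which were named for their low p. In the whole list both Jagged1 libraries were above in 4 and below in 7 of 28 genes, against 13.9% and 15.1% of all tested genes.

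Among other angiogenic factors and inhibitors 14 of 24 genes in the table were tested, with 5 positive and 9 negative values and 0 passing (median -0.17). Ccbe1, a secreted protein needed for the maturation of VEGF-C, was at 21.8 and 22.8 CPM in Jagged1 cells and 36.0 and 36.3 CPM in vector cells (-0.70 ± 0.16; adjusted p = 0.9136, edgeR). Its lines were far apart and its replicates close, but Ccbe1, Vash2 and Adm were named for the lowest p of the list. Over the 14 tested genes both Jagged1 libraries were above both vector libraries in 2 and below in 5, against 13.9% and 15.1% of all tested genes. Vash2, a vasohibin gene, was at 12.9 and 6.79 CPM in Jagged1 cells and 4.69 and 3.99 CPM in vector cells (1.18 ± 0.40). Adm, the gene of the vessel peptide adrenomedullin, was at 1.74 and 4.84 CPM in Jagged1 cells and 8.79 and 7.98 CPM in vector cells (-1.37 ± 0.52). Adm was lower in both Jagged1 libraries, by 2.25 within number 1 and 0.71 within number 2 in log2 CPM, and its log2 fold change was -0.78 without Jagged1 1 and -2.26 without Jagged1 2. Adamts1, a protease gene, was at 130.6 and 69.1 CPM in Jagged1 cells and 132.2 and 190.5 CPM in vector cells, with Jagged1 1 level with vector 1. Its log2 fold change was -0.69 with all 4 libraries. It was -1.22 when Jagged1 1 was left out and the low-count filter was run again. The difference in log2 CPM was -0.018 within number 1 and -1.46 within number 2, so its size rests on the libraries numbered 2 of both lines. The matrix gene Thbs2 had 24 reads in Jagged1 2 and 0 in each other library. Adamts1 and Thbs2 are given here for calls under alternative settings, and not for a low p in the main fit.

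**Figure D4:**
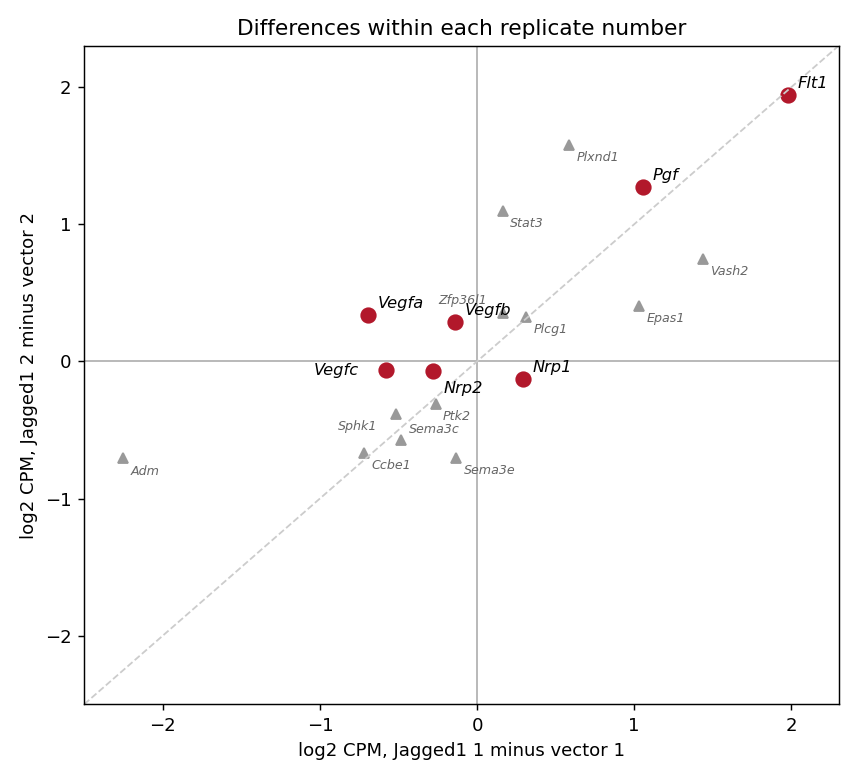
Differences in log2 CPM, Jagged1 1 minus vector 1 on the x axis and Jagged1 2 minus vector 2 on the y axis, for the 7 tested members (red circles) and the 12 named genes of the related lists (grey triangles), with the dashed line marking equal differences. Flt1 (1.98 and 1.94) lies on the line at the upper right, and Vegfa (-0.69 and 0.34) changes sign between the numbers.

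The tested genes whose centred log2 CPM over the 4 libraries were most like those of Flt1 were Edn2, the endothelin-2 gene, the clone-named RP23-212H13.8 and Armcx4, with root mean square differences of 0.121, 0.16 and 0.167. Edn2 stood at 2.27 and 2.89 CPM in Jagged1 cells and 0.595 and 0.651 CPM in vector cells, and Armcx4 at 4.36 and 4.91 CPM in Jagged1 cells and 1.32 and 1.47 CPM in vector cells. Most like Vegfa were Arsg, Rnf43 and Lynx1, with differences of 0.0234, 0.0307 and 0.0539. Rnf43, a ubiquitin ligase of Wnt receptors, stood at 3.19 and 7.44 CPM in Jagged1 cells and 5.02 and 6.11 CPM in vector cells. These are likenesses over 4 libraries among 13299 genes.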

How the data were processed

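The authors deposited unnormalized read counts, with a row for each gene symbol and a separate column for each of the 4 libraries. Per the submitters' processing notes, STAR 2.6.0c and featureCounts 1.6.2 were used with the mm10 (GRCm38) genome; the annotation and strand setting behind the counts are not given in the sources used. From these counts, genes were filtered with filterByExpr (minimum count 10), scaled by TMM, and Jagged1 was compared with vector in edgeR 4.0.16 (quasi-likelihood F test, robust, R 4.3.3) with Benjamini-Hochberg adjustment over all 13299 tested genes. SE is the absolute log2 fold change over the square root of F. Within-number differences use log2 CPM with a prior count of 2. DESeq2 1.42.0, limma 3.58.1 (voom) and other filters, scalings and library subsets were alternatives. The fits were tested on simulated data with independent libraries and no split by replicate number, unlike these libraries. With 2 libraries per line an exact permutation test cannot go below p = 0.333, so none was run. The members and lists were chosen with earlier results of these data known. Named genes are the members, Jag1, the 3 lowest unadjusted p in each of the 4 related lists, markers, and the 3 nearest patterns to Flt1 and Vegfa. Adamts1 and Thbs2 fall outside these rules and were named for calls under alternative settings. In the marker lists, summed levels and a few defining or highest genes are printed.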

Additional observations from a re-analysis of the deposited data

How the results depend on the processing

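In the edgeR fit 1 gene (Jag1), 0 VEGF members and 0 genes of the 4 related lists passed. DESeq2 called 47 genes and 1 member (Flt1), and no low-count filter gave 169 genes, 1 member (Flt1) and 1 list gene (Thbs2). With DESeq2 size factors, limma-voom, a minimum mean of 5 CPM or the 18S row left out the counts were as in the main fit; Flt1 was not tested under the 5 CPM minimum. A replicate block called 17 genes and 0 members (Flt1 adjusted p = 0.105, edgeR); libraries of the same number deviated together (correlation 0.425 across genes), but there are only 2 pairs and the labels do not say that the number marks shared handling. With 1 library left out and the tested genes kept, 0 to 5 genes, 0 members and 0 list genes passed. With the filter also run again, a choice made after seeing the data, the count of genes ranged from 0 (without vector 1 or vector 2) to 193 (without Jagged1 1; 49 without Jagged1 2), again with 0 members, and of list genes from 0 to 3. Over both, Jag1 lay between 4.80 and 5.06 (not passing without vector 1 or vector 2). Signs turned in these subsets for Vegfa (-0.81 to 0.47), Vegfc (-1.20 to 0.40), Vegfb (-0.17 to 0.33), Nrp1 (-0.10 to 0.28) and, with the filter run again, Nrp2 (-0.34 to 0.0025). A lone library of a line is there assumed to vary like the others. Flt1 and Pgf were positive under every alternative in which they were tested. Depth limits Kdr and Flt4, whose counts lay between 0 and 15.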
